A study of Mus musculus with 2 samples.

Results

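A set of 10 genes of the scavenger and TAM receptor families was followed across a cerebellar breast cancer brain metastasis (BCBM) and the brain around it, and 3 of the 10 were called higher in the edge of the tumor than in neural tissue, Msr1, Cd36 and Stab1, where 6.62% of all genes tested were called. Mrc1, Axl, Mertk and Pros1 also lay above neural tissue in the edge of both sections and did not pass the test. Msr1, Cd36 and Stab1 were called in tumor against neural tissue as well, where 30.8% of all genes were. None of the 10 was called in edge against tumor. In a fit that left the section out, the edge calls of Msr1 and Cd36 were lost. The 10 genes were a given list, namely Mrc1, Stab1, Lyve1, Msr1, Marco, Cd36, Axl, Mertk, Gas6 and Pros1, and were taken from the 19465 genes in both count matrices. All 10 were present in both, and all 10 passed the filter on low counts.

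The tumors were generated from HP organoids, prepared from mammary tumors of mice carrying HER2 V777L and PIK3CA H1047R (titled HP-F1 +cre for replicate 1 and HP-B6 +cre for replicate 2, both under cell line B6-HP), which had been dissociated into small clusters and injected into the cerebellum. Each of the 2 biological replicates gave 1 formalin-fixed, paraffin-embedded section of 5 μm, assayed with Visium CytAssist, in which gene-specific probe pairs are counted as unique molecular identifiers (UMI) at barcoded spots. The host mice were 5 months old, the tumors were seen by MRI at 3 weeks, neither section was treated, and there was no section of brain without tumor. A spot can hold several cells of different types, and a deposit placed by injection has not spread through the blood.

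Scavenger receptors bind modified lipoproteins, microbial surfaces and dying cells. Mrc1 (the mannose receptor, CD206), Stab1 (stabilin-1) and Lyve1 (a hyaluronan receptor) are known from tissue-resident and perivascular macrophages, and Lyve1 also from lymphatic endothelium. Msr1 (SR-A, CD204) and Marco are class A receptors, and Cd36 is a class B receptor that takes up oxidized lipoprotein and fatty acids and is also found on endothelium. Axl and Mertk are receptor tyrosine kinases of the TAM family (with Tyro3). Gas6 and Pros1 (protein S) are ligands of this family that bridge its receptors to phosphatidylserine on apoptotic cells, so that the cells are engulfed. Pros1 was not taken here as a ligand of Axl. In brain, microglia and border macrophages are known for using these receptors.

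For 3 of these genes the sequence before a listed transcript start is shown. They stood for 3 different spatial patterns: Stab1 followed the macrophage markers, Cd36 had its highest level at the border, and Mrc1 was highest inside 1 of the tumors. The set of promoter sequences used, on GRCm38.p6, held 8 of the 10 genes, all but Msr1 and Lyve1, which RefSeq does list as genes. Each run is the 250 bases before a listed transcript start, 5′ to 3′ on the strand of the gene, at chr2:14229164-14229413 on the plus strand for Mrc1, chr5:17835897-17836146 on the minus strand for Cd36, and chr14:31168642-31168891 on the minus strand for Stab1, with capitals at GAGGAA, the core of the motif of the myeloid factor PU.1, on either strand (TTCCTC on the other).
Mrc1: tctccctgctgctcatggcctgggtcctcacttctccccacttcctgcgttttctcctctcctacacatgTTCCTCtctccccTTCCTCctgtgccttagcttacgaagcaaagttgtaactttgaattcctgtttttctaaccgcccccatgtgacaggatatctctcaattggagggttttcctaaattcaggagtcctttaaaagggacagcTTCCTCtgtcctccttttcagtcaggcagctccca
Cd36: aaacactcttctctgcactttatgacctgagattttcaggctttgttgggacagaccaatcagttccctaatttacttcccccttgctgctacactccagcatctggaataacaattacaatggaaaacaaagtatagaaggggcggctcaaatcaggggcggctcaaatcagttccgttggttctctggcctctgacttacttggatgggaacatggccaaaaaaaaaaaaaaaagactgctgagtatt
Stab1: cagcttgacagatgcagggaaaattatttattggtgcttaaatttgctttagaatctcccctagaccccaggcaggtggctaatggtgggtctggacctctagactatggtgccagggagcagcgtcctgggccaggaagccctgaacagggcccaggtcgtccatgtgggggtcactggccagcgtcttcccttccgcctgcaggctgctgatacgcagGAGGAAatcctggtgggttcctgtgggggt
The core was present 3 times for Mrc1, with first bases at -180, -167 and -35 from the start, once for Stab1 at -30, and 0 times for Cd36. Of the other 5 genes, Marco (-146) and Axl (-130) had 1 each and Mertk, Gas6 and Pros1 had 0. The core was in 23.3% of 32851 promoters of the same length. The AP-1 motif TGANTCA, with N any base, was in none of the 8 and in 6.75% of all. The Cd36 window lay inside the RefSeq span of its gene (chr5:17781690-17888959), so it preceded an internal start and not the first base of the gene. The Stab1 window overlapped the end of its RefSeq span, at 31168651. These matches are a description of letters in a window.

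The 2 sections held 3406 and 4017 spots under tissue, with 63986887 and 71878333 UMIs and medians of 9733.5 and 12390 UMIs per spot. Tumor, edge and neural spots were called from marker counts, with none of the 10 genes among the markers. The tumor markers mixed epithelial genes, such as Epcam, with collagen and other stromal genes, such as Col1a1. The edge was taken as the spots within 2 array steps of the border on either side. Tumor, edge and neural held 738, 244 and 2333 spots in section 1 and 922, 349 and 2707 in section 2. Tumor spots were deeper (median 55001 and 40098.5 UMIs) than edge spots (19718.5 and 15506) and neural spots (7486 and 9594). The neural region was all tissue outside the tumor and so was wider than the cerebellar cortex alone. The tumors differed from each other although both had the genotype label HP. Their titles differed, as given above, and the labels do not explain what the titles stand for. Any difference behind the titles cannot be told apart from the section. Summed epithelial markers (8 genes, among them Epcam and Krt8) were at 45.6 CPM (UMIs per 1000000 UMIs of the library) in the tumor of section 1 and 9930 in that of section 2. In neural tissue they were at 27.1 and 168 CPM, so the tumor of section 1 was near that level. Summed fibroblast markers (7 genes, among them Dcn and Col1a1) were at 36750 and 361.8 CPM in the 2 tumors and 447 and 88.2 in neural tissue. The sections shared 3096 spot barcodes, which are positions on the array and no shared cells.

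**Figure D1:**
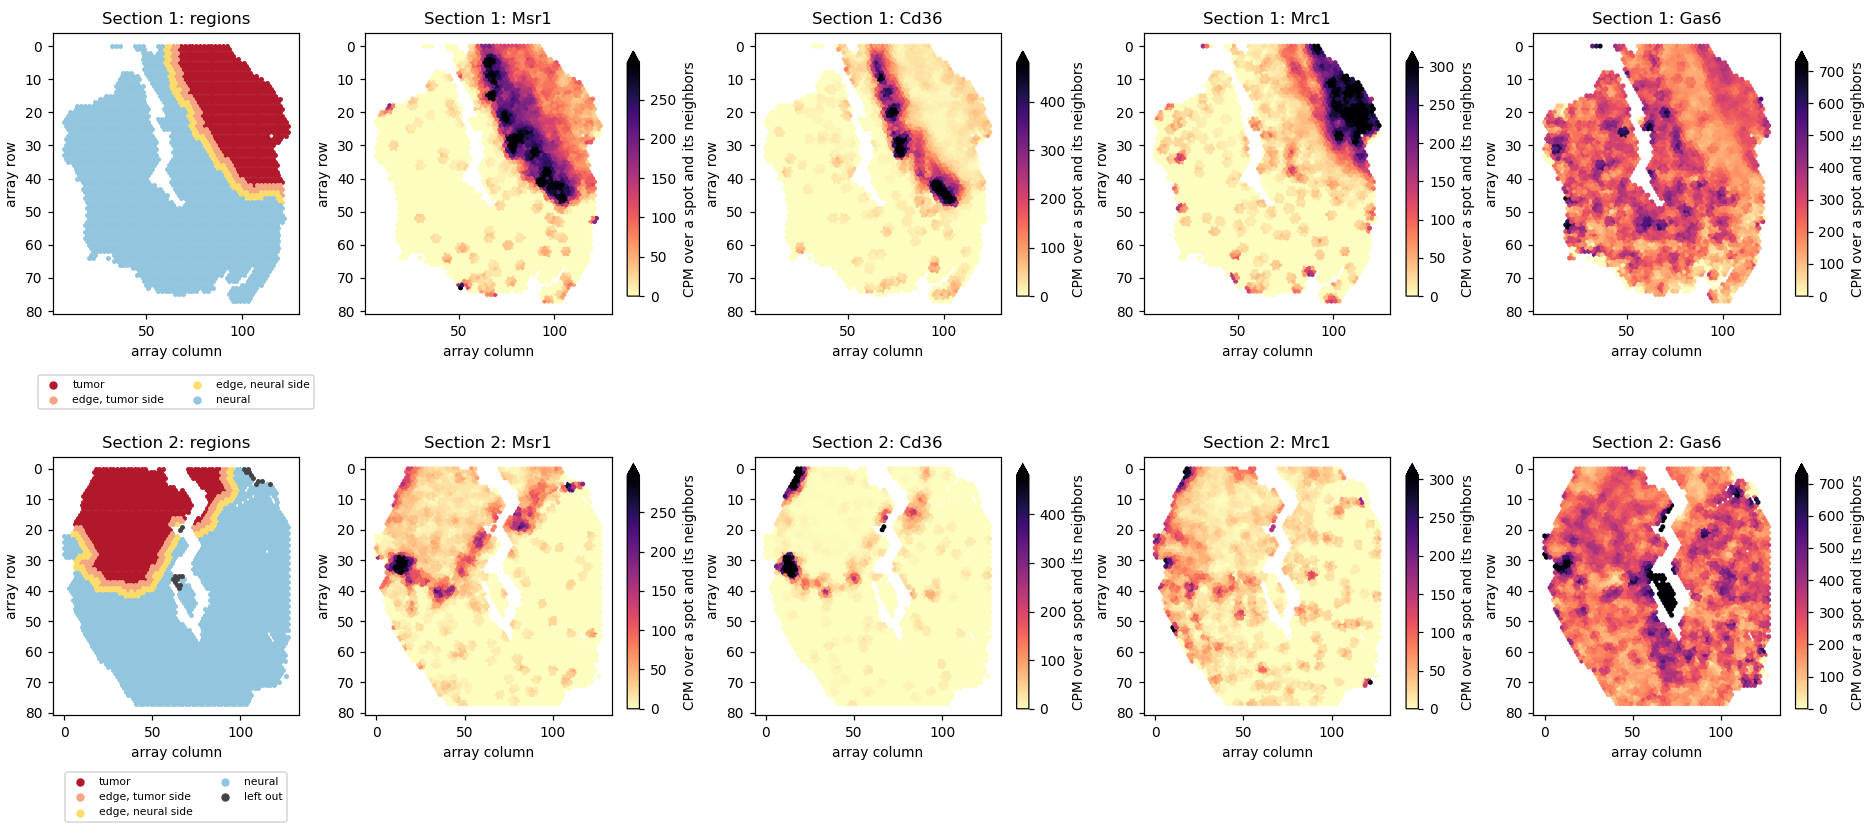
Maps of both sections, 1 point a spot, with array column on the x axis and array row on the y axis. The left panels give the regions and the others the CPM of Msr1, Cd36, Mrc1 and Gas6 summed over each spot and its neighbors (color, cut at the 99th percentile). Msr1 and Cd36 were darkest along the border of the tumor, Mrc1 in the part of the section 1 tumor away from the border, and Gas6 had no such band.

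Summing the UMIs of each region of each section gave 6 libraries, which were fitted together in edgeR, the section serving as the block, and compared by its quasi-likelihood test. In edge against neural tissue, 6.62% of the 19231 genes tested were called at a Benjamini-Hochberg adjusted p below 0.05 (3.4% higher and 3.23% lower in the edge), and 3 of the 10 genes were called, all higher. In tumor against neural tissue, 30.8% of all genes were called (15% higher and 15.7% lower in tumor), and the same 3 genes were called, again all higher, a share close to that of all genes. In edge against tumor, 3.7% of all genes were called (3.4% higher and 0.302% lower in the edge) and none of the 10 was. Msr1 and Cd36 had unadjusted p below 0.05 there, as did 4584 of the 19231 genes tested. DESeq2 called 1 of the 10, Cd36, beside 2169 of 14011 genes. The median log2 fold change over all genes was -0.03, -0.12 and -0.01 in the 3 comparisons. The p-values rest on 2 animals and 2 residual degrees of freedom.

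**Figure D2:**
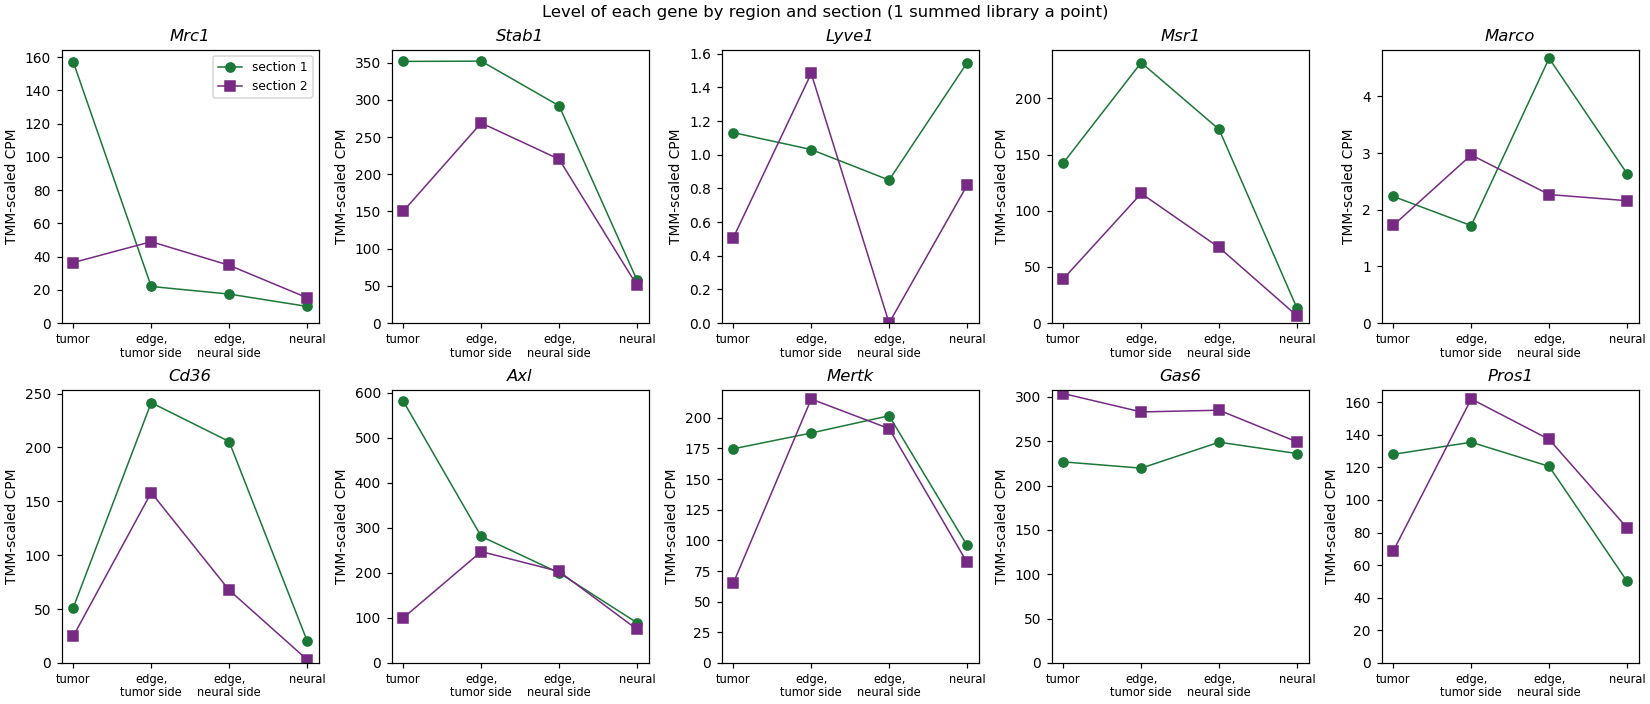
Level of each of the 10 genes (y axis, CPM scaled by TMM, from 0) in tumor, both sides of the edge and neural tissue (x axis), 1 summed library a point, with sections 1 and 2 as circles and squares. Msr1, Cd36, Stab1, Mrc1, Axl, Mertk and Pros1 were above neural tissue on both sides of the edge within each section, Axl and Mrc1 had their highest point in the tumor of section 1, and Gas6 stayed between 220 and 304.

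Among the class A receptors, Msr1 was at 193 and 98.5 TMM-scaled CPM in the edge of sections 1 and 2, at 142 and 36.9 in tumor and at 12.7 and 6.49 in neural tissue. The edge and tumor were above neural tissue in both sections without overlap, and the edge was the highest region within each section. The edge was 14.7-fold and 14.1-fold above neural tissue in the 2 sections, and the fitted log2 fold change was 3.93 (SE 0.35, edgeR's quasi-likelihood test, Benjamini-Hochberg adjusted p = 0.0371). Tumor against neural tissue gave 3.03 (SE 0.34, edgeR's quasi-likelihood test, Benjamini-Hochberg adjusted p = 0.0060). Edge against tumor gave 0.90 (SE 0.31, edgeR's quasi-likelihood test, Benjamini-Hochberg adjusted p = 0.189), with 0.44 in section 1 and 1.40 in section 2. The call in edge against neural tissue was lost in the fit without the block (edgeR's quasi-likelihood test, Benjamini-Hochberg adjusted p = 0.0543).

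Summed macrophage markers (15 genes, among them Csf1r, Cd68 and Aif1, none at 0 in any region) moved with Msr1. They were at 13000 and 9988 CPM in the edge, 11270 and 3073 in tumor and 2576 and 2552 in neural tissue. In bulk sums of this kind, fewer macrophages and less RNA per macrophage cannot be told apart. Per 1000 UMIs of these markers, Msr1 was at 16.8 and 9.63 UMIs in the edge, 11.1 and 10.4 in tumor and 5.70 and 2.60 in neural tissue. The ratio was thus lower in neural tissue in both sections. It was highest in the edge in section 1 and in the tumor in section 2, and its differences were not tested.

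Marco, the other class A receptor, was near its detection limit, with 151 UMIs over all kept spots of section 1 and 133 in section 2. It was at 2.85 and 2.78 TMM-scaled CPM in the edge, 2.23 and 1.62 in tumor and 2.53 and 2.19 in neural tissue, and 16 UMIs in each edge gave exact 95% Poisson intervals of 1.85 to 5.25 and 1.55 to 4.41 unscaled CPM, for counting error only. No difference was detectable at this depth (log2 fold change 0.26 ± 0.26 SE in edge against neural tissue).

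Cd36, the class B receptor, had its highest level in the edge in both sections. It was at 212 and 124 TMM-scaled CPM in the edge, 51.3 and 23.4 in tumor and 20.0 and 3.18 in neural tissue. The deeper and more numerous tumor spots still held more Cd36 UMIs (1772 and 738) than the edge spots (1187 and 712). Both edge libraries were above both tumor libraries, and both tumor libraries were above both neural libraries. The edge was 10.4-fold and 33.7-fold above neural tissue, and the fit gave a log2 fold change of 4.26 (SE 0.56, edgeR's quasi-likelihood test, Benjamini-Hochberg adjusted p = 0.0371). Without the block this call was lost (edgeR's quasi-likelihood test, Benjamini-Hochberg adjusted p = 0.0927).

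In tumor against neural tissue, Cd36 was called at a log2 fold change of 2.01 (SE 0.51, edgeR's quasi-likelihood test, Benjamini-Hochberg adjusted p = 0.0459). That call was lost without the block, with library size as the only scaling, with an edge of 1 step, and with regions drawn from the neural markers alone, where the log2 fold change was 0.97 and edgeR's quasi-likelihood test gave a Benjamini-Hochberg adjusted p of 0.165. Edge against tumor gave 2.25 (SE 0.50, edgeR's quasi-likelihood test, Benjamini-Hochberg adjusted p = 0.107), with 2.03 and 2.37 in the 2 sections. Cd36 passed the threshold there in the fit with both sides of the edge as regions of their own, with DESeq2, with the region threshold moved up and per spot. In that order, these settings called 2940, 2169, 1171 and 9600 of all genes.

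Cd36 was patchy in section 2. In its edge, the 35 spots (10%) with the most Cd36 UMIs held 73.7% of them, and in its tumor 93 spots held 89.2%. The same share for the macrophage markers was 34.6% and 28.6%. In section 1 the share for Cd36 was 30.1% in the edge and 44.1% in tumor, against 20.2% and 17.5% for the macrophage markers. A single gene has fewer UMIs than a sum of 15, which raises such a share, and no correction for counts was made. For Msr1 alone the share in edge and tumor was 28.8% and 25.4% in section 1 and 49.2% and 38.7% in section 2. At least 1 Cd36 UMI was seen in 86.5% of edge spots of section 1 and 43.3% of those of section 2, and in 8.57% and 3.36% of the shallower neural spots. Endothelial markers (11 genes), which also mark cells that carry Cd36, were at 612 and 818 CPM in the edge and 485 and 439 in neural tissue. Their part in the Cd36 level was not tested.

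**Figure D3:**
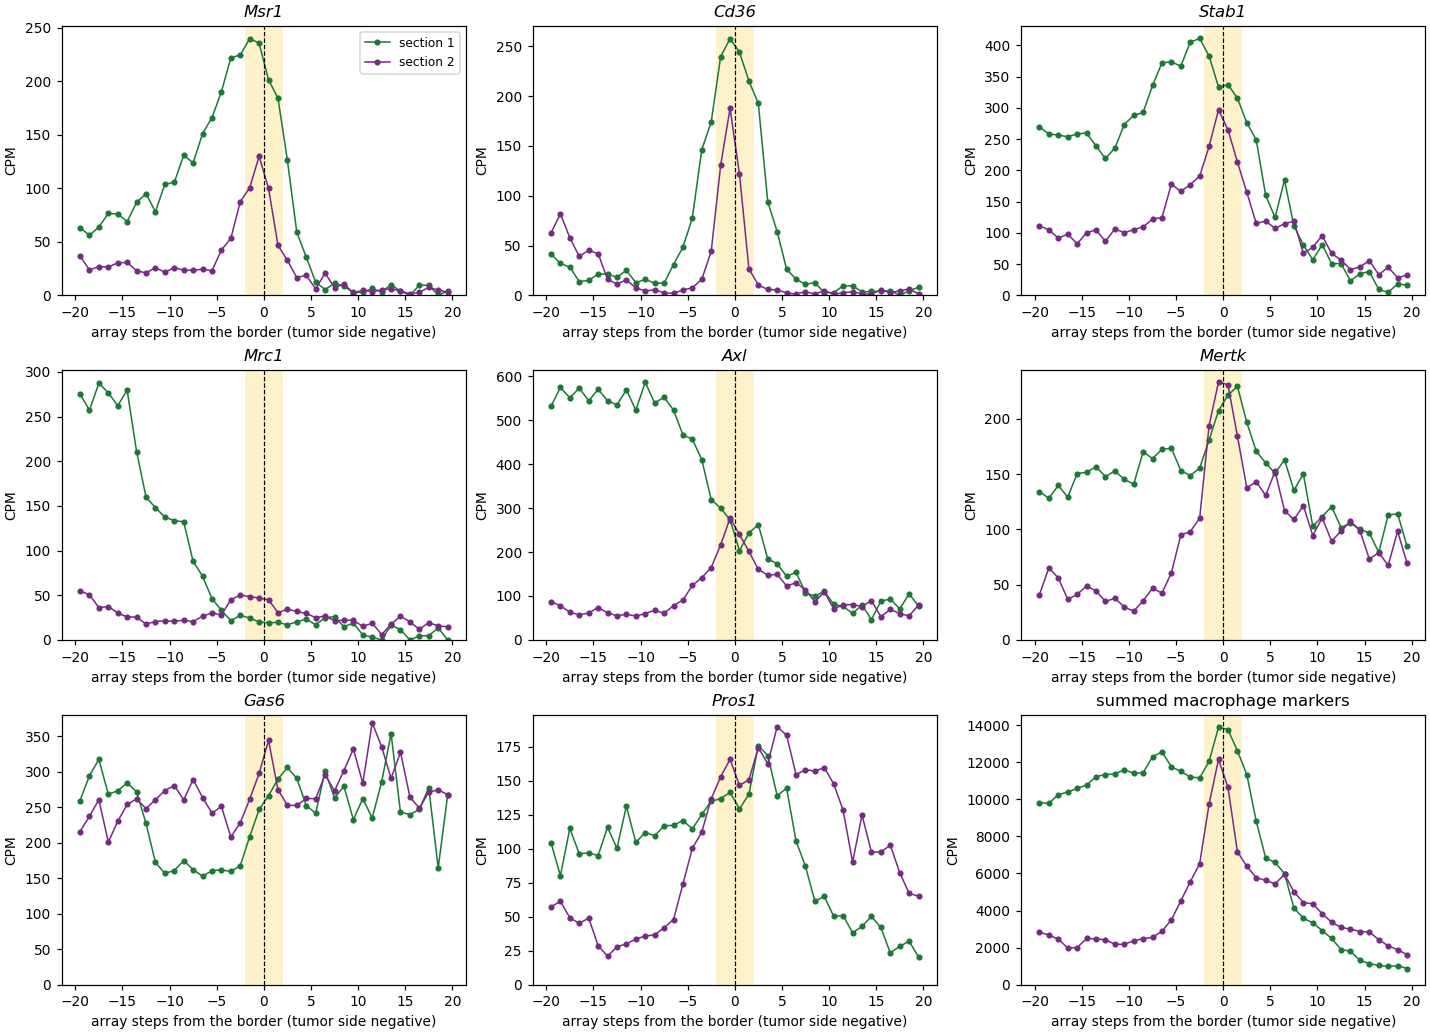
CPM of 8 genes and of the summed macrophage markers (y axes, from 0) by array steps from the border (x axis, tumor side negative, edge shaded), with all spots of a step summed, for sections 1 (green) and 2 (purple). Msr1, Cd36 and the macrophage markers peaked within 2 steps of the border in both sections, and Pros1 peaked on the neural side of the border, beyond the edge. Among steps of at least 20 spots, Mrc1 was highest at step -18 in section 1 and step -20 in section 2.

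Step by step from the border, Cd36 peaked at the first tumor step in both sections, at 258 and 188 CPM. Toward the brain it was at 93.9 by step 4 in section 1, and already at 26.6 by step 2 in section 2. Into the tumor it fell to 12.1 at step -9 in section 1 and 1.96 at step -7 in section 2. Of the steps with at least 20 spots, the only ones shown, it was higher again at the deepest in both sections. In section 1 it was at 41.3 at step -20. In section 2 it was at 82.0 at step -19 and 62.4 at step -20, where Arg1 (arginase 1) was at 726 and 955. By eye in the maps, these deep spots of section 2 lay at the outer margin of the tissue, and their distance from it was not measured. Msr1 peaked beside Cd36 but reached farther into the tumor of section 1, at 240 CPM at step -2, 104 at step -11 and 63.1 at step -20. In section 2 Msr1 peaked at 130 at step -1 and was between 20.9 and 42.3 from step -5 inward.

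Among the receptors of resident macrophages, Stab1 was at 305 and 259 TMM-scaled CPM in the edge, 351 and 141 in tumor and 55.4 and 51.2 in neural tissue. All 4 edge and tumor libraries were above both neural libraries, and the tumor was the highest region in section 1 and the edge in section 2. The log2 fold change was 2.39 (SE 0.37) in edge against neural tissue (edgeR's quasi-likelihood test, Benjamini-Hochberg adjusted p = 0.0415) and 2.10 (SE 0.37) in tumor against neural tissue (edgeR's quasi-likelihood test, Benjamini-Hochberg adjusted p = 0.0175), and no alternative ended either call. Per 1000 macrophage-marker UMIs, Stab1 was between 20.4 and 40.0 in all 6 libraries. It therefore varied less against these markers than Msr1, Cd36 or Mrc1 did, as a description of these libraries.

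Mrc1 differed between the 2 tumors. It was at 157 and 34.2 TMM-scaled CPM in tumor, 18.7 and 44.6 in the edge and 9.61 and 15.4 in neural tissue. The tumor was the highest region in section 1 and the edge in section 2, and the edge of section 2 was 1.30-fold above its tumor. Edge against tumor was -3.03 in section 1 and 0.38 in section 2 on the log2 scale, and the fit gave -1.57 (SE 0.97, edgeR's quasi-likelihood test, Benjamini-Hochberg adjusted p = 0.373). Tumor against neural tissue was 2.91 (SE 0.97, edgeR's quasi-likelihood test, Benjamini-Hochberg adjusted p = 0.0852), with 3.96 and 1.12 in the sections. It passed with DESeq2 (beside 7265 of 17366 genes), per spot (16458 of 19231) and with both sides of the edge as regions of their own (7154 of 19093). Per spot, all 10 genes were called in that comparison.

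In section 1, Mrc1 was between 19.2 and 27.6 CPM from step -4 to step 2, and rose into the tumor, at 71.4 at step -7, 132 at step -9 and 287 at step -18. Cd36 fell from 146 at step -4 to 12.1 at step -9 and was higher again deeper, at 28.3 at step -18. From step -4 to step -18 the macrophage markers were between 10260 and 12570. In section 2, Mrc1 was between 44.8 and 50.3 CPM from step -4 to step 1. It was between 17.7 and 30.3 from step -16 to step -5. Of the steps shown, Mrc1 was highest at step -20, at 55.2 over 21 spots, beside 50.4 at step -19 and 50.3 at step -3. These values are close, and the deepest spots are those seen above at the outer margin of the tissue. Per 1000 macrophage-marker UMIs, Mrc1 was at 1.63 in the edge and 12.2 in the tumor of section 1, and at 4.37 and 9.67 in section 2. This ratio was lowest in the edge in both sections. Within the tumor spots of section 1, Mrc1 and the summed border macrophage markers (8 genes, among them Pf4 and F13a1) ran opposite ways (Pearson's r = -0.60), while in section 2 they ran together (0.82). Spots of a section share depth and neighbors, so these r carry no test.

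Lyve1 gave 78 UMIs over section 1 and 45 over section 2, with 5 in each edge. It was at 0.89 and 0.87 TMM-scaled CPM in the edge, 1.13 and 0.48 in tumor and 1.48 and 0.83 in neural tissue. The edge had 0 UMIs on its neural side in section 2, for which the exact 95% Poisson interval reached 1.51 unscaled CPM. No difference was detectable at this depth. Genes listed as lymphatic endothelial markers (5 measured, among them Prox1 and Pdpn) were at 241 and 248 CPM in the edge and 194 and 273 in neural tissue. They were lowest in tumor, at 51.0 and 97.7. Which cells this RNA came from was not tested, so the sum is no measure of lymphatic endothelium here.

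**Figure D4:**
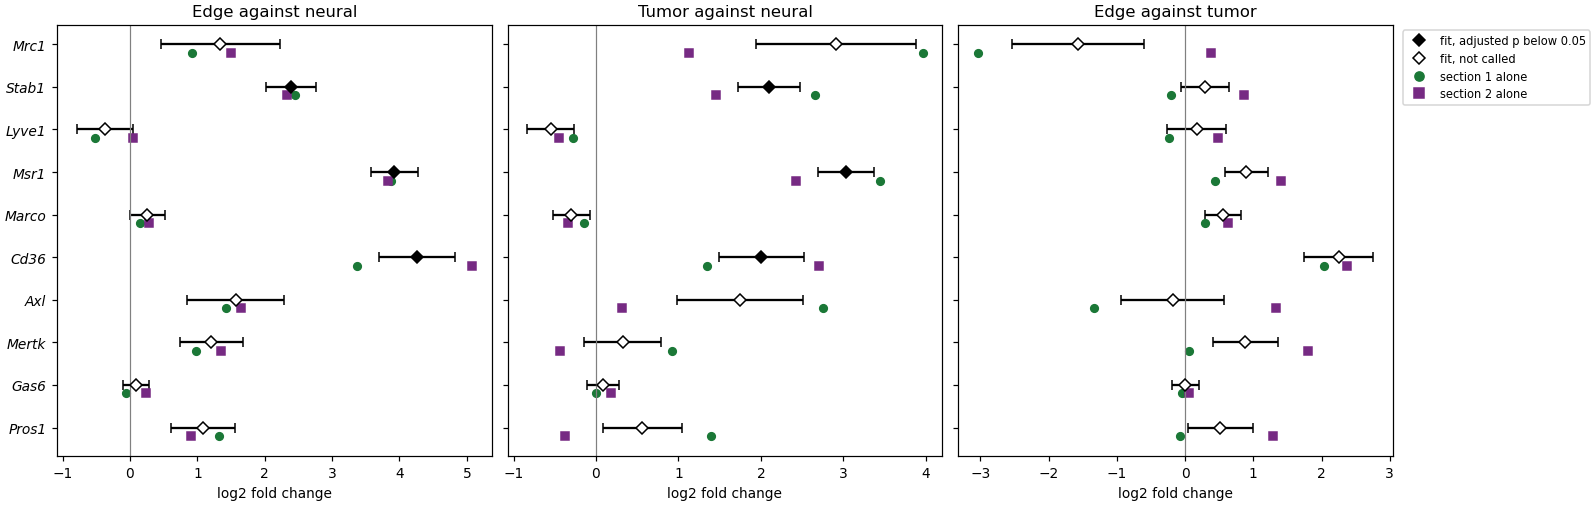
Log2 fold changes (x axes) of the 10 genes (rows) in edge against neural tissue, tumor against neural tissue and edge against tumor. Diamonds with bars are the fit with 1 SE, filled where called, and circles and squares are sections 1 and 2 alone. Msr1, Cd36 and Stab1 were called in the first 2 panels, and Mrc1, Axl, Stab1, Pros1, Gas6 and Lyve1 had opposite signs in the 2 sections in the third.

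The TAM receptor Axl also differed between the tumors. It was at 581 and 94.2 TMM-scaled CPM in tumor, 230 and 238 in the edge and 85.7 and 75.5 in neural tissue. The edges were alike in level and above neural tissue in both sections, while the tumor of section 1 was the highest library and the tumor of section 2 was near neural tissue. Edge against neural tissue was 1.57 on the log2 scale (SE 0.72, edgeR's quasi-likelihood test, Benjamini-Hochberg adjusted p = 0.257), with 1.42 and 1.65 in the sections. Tumor against neural tissue was 1.75 (SE 0.76, edgeR's quasi-likelihood test, Benjamini-Hochberg adjusted p = 0.146), with 2.75 and 0.32 in the sections. DESeq2 and the counts per spot called it, beside 7265 of 17366 and 16458 of 19231 genes. Edge against tumor was -1.34 in section 1 and 1.33 in section 2. In section 1 Axl stayed between 523 and 586 CPM from step -7 to step -20. In section 2 it peaked at 277 at step -1 and was at 54.5 at step -11. Axl was at 20.0 and 23.3 UMIs per 1000 macrophage-marker UMIs in the edge, 45.3 and 26.6 in tumor and 38.6 and 30.2 in neural tissue. This ratio was lowest in the edge in both sections. Summed fibroblast markers were 36750 CPM in the tumor with high Axl and 361.8 in the other, and macrophage markers were 11270 and 3073. Within the tumor spots of sections 1 and 2, Axl had a Pearson's r of -0.08 and 0.37 with the fibroblast markers. With the macrophage markers it had 0.37 and 0.86, and with summed T cell markers 0.52 and 0.44. Over all spots it had 0.87 and 0.35 with the fibroblast markers and 0.80 and 0.72 with the macrophage markers. The part of any of these cell types in the Axl level was not tested.

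Mertk was at 182 and 214 TMM-scaled CPM in the edge, 174 and 61.2 in tumor and 92.2 and 83.2 in neural tissue. Both edges were above both neural libraries, and the tumor lay above neural tissue in section 1 and below it in section 2 (log2 fold changes of 0.92 and -0.44). The fit gave 1.21 in edge against neural tissue (SE 0.47, edgeR's quasi-likelihood test, Benjamini-Hochberg adjusted p = 0.193). The peak was at the border in both sections, at 229 CPM at step 2 and 233 at step -1. In section 2 Mertk was at 25.9 at step -10, the lowest step of its profile. Mertk was at 15.9 and 20.9 UMIs per 1000 macrophage-marker UMIs in the edge, 13.6 and 17.3 in tumor and 41.5 and 33.2 in neural tissue. This ratio was thus highest in neural tissue in both sections.

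Of the ligands, Pros1 was at 121 and 158 TMM-scaled CPM in the edge, 128 and 64.6 in tumor and 48.2 and 84.0 in neural tissue. Both edges were above both neural libraries, and the tumor was above neural tissue in section 1 and below it in section 2 (1.40 and -0.38 on the log2 scale). Edge against neural tissue was 1.08 (SE 0.47, edgeR's quasi-likelihood test, Benjamini-Hochberg adjusted p = 0.237). Unlike the receptors called above, Pros1 peaked on the neural side of the border, beyond the edge. It was at 176 CPM at step 3 in section 1, 190 at step 5 in section 2 and still 157 at step 9 in section 2. Within the edge, Pros1 was at 121 and 137 TMM-scaled CPM on the neural side and higher, at 135 and 162, on the tumor side. The macrophage markers were at 12160 CPM at step -1 and 5626 at step 5 in section 2, and at 13900 at step -1 and still 11340 at step 3 in section 1. Pros1 was at 10.5 and 15.4 UMIs per 1000 macrophage-marker UMIs in the edge, 9.97 and 18.3 in tumor and 21.7 and 33.6 in neural tissue. This ratio was also highest in neural tissue in both sections.

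Gas6 was the flattest of the 8 genes with over 1000 UMIs a section. It was at 218 and 297 TMM-scaled CPM in the edge, 226 and 285 in tumor and 227 and 253 in neural tissue. The regions overlapped, and the log2 fold change was 0.09 (SE 0.20) in edge against neural tissue and 0.09 (SE 0.20) in tumor against neural tissue, with unscaled library sizes giving -0.23 in the latter. Its highest step was 2.71 and 2.48 times its lowest, against 13.8 and 35.9 for Axl and 15.3 and 32.7 for Pros1. Per 1000 macrophage-marker UMIs it was at 102 and 101 in neural tissue, 19.0 and 29.0 in the edge and 17.7 and 80.7 in tumor. In the tumor of section 1, Gas6 was at 153 CPM at step -7 and 317 at step -18.

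When the edge was split, none of the 10 genes was called between its neural and tumor sides, where 0% of 19093 genes were called (2033 at an unadjusted p below 0.05, and 299 by DESeq2). Msr1 was at 172 and 67.3 TMM-scaled CPM on the neural side and 232 and 115 on the tumor side. Cd36 was at 206 and 67.6 on the neural side and 242 and 158 on the tumor side. Both were lower on the neural side within each section, and the sections overlapped. Mertk differed by -0.05 on the log2 scale (SE 0.39).

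**Figure D5:**
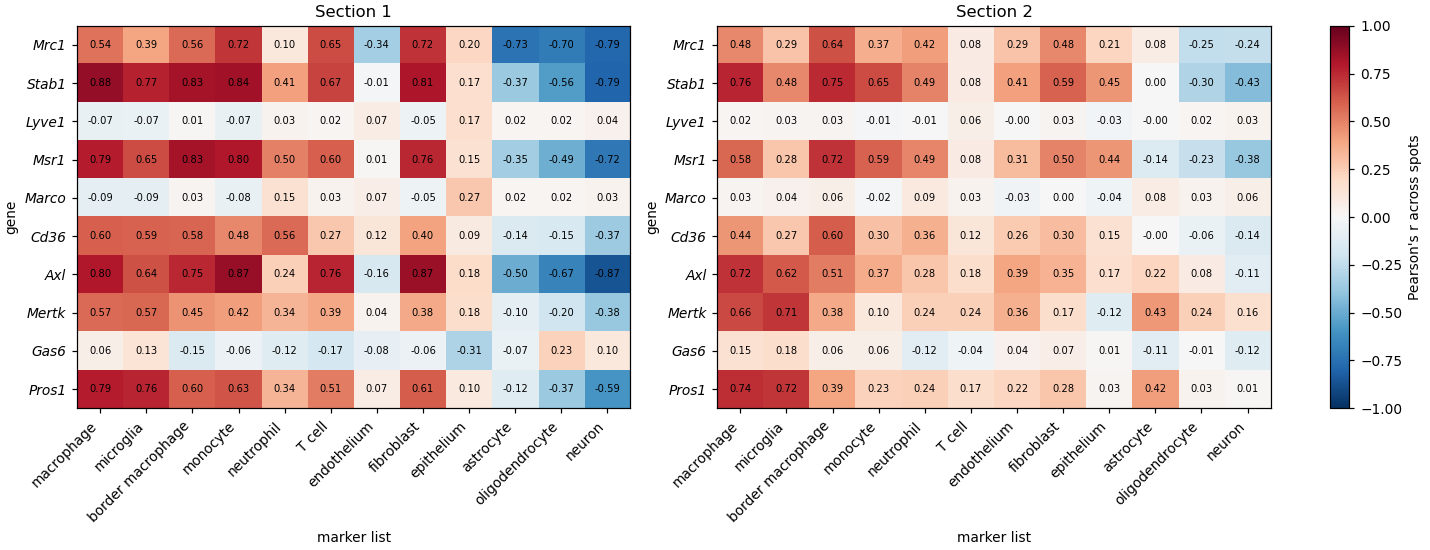
Pearson's r (color and printed value) across spots between each of the 10 genes (rows) and the summed level of 12 marker lists (columns), for section 1 (3315 spots) and section 2 (3999 spots), each on the log2(CPM + 100) scale with UMIs summed over a spot and its neighbors. Stab1 had the highest r with the macrophage markers in both sections (0.88 and 0.76), and Marco and Lyve1 were near 0.

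Across spots, likeness was taken as the lower of the 2 sections' Pearson correlations, over 3315 and 3999 spots and 9699 genes with at least 1000 UMIs a section. Neighboring spots share UMIs and depth, so the values describe likeness of pattern only. Msr1 was most like C3ar1 (0.78, the receptor of complement C3a), Plin2 (0.78, a lipid droplet protein) and Srgn (0.77). Cd36 was most like Mmp12 (0.78, macrophage elastase), Ccl6 (0.74) and Clec4d (0.73). Stab1 was most like Mpeg1 (0.80), Cd68 (0.80) and Fcer1g (0.79), and Axl was most like Ctss (0.73), Mpeg1 (0.72) and Fcer1g (0.71), which are macrophage genes and in part the markers used here. Pros1 was like Fcgr3 (0.75) and C1qc (0.74), which are macrophage and microglia genes. Mertk was most like Cd84, Apoe and Itgam (each 0.58), and Mrc1 most like Il4ra (0.54, a subunit of the interleukin 4 receptor), Pirb (0.53) and Ms4a6d (0.53). Gas6 was most like Arl6ip1 (0.35), Stk39 (0.33) and S100a1 (0.33), the lowest such values of the 8 genes. Marco and Lyve1 had too few UMIs for a value.

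Between the 10 genes themselves, Msr1 and Stab1 had the highest r in section 1 (0.83, and 0.63 in section 2), and Msr1 and Cd36 the highest in section 2 (0.66, and 0.77 in section 1). Mrc1 and Cd36 had 0.08 in section 1 and 0.44 in section 2. Axl and its ligand Gas6 had -0.01 and 0.13, and Axl and Pros1 had 0.60 and 0.57. With a pseudocount of 10 CPM in place of 100, the r in section 1 was 0.29 for Mrc1 and Cd36 and 0.10 for Axl and Gas6. Mertk and Gas6 had 0.08 and 0.13, and Mertk and Pros1 0.46 and 0.58. Within the tumor spots of section 2, the epithelial markers ran opposite to Mertk (-0.86), Cd36 (-0.74), Axl (-0.73), Pros1 (-0.71), Msr1 (-0.68), Mrc1 (-0.67) and Stab1 (-0.62). Gas6 had 0.06 there.

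Beyond the 10 genes, 17 of 18 other scavenger receptor genes on a fixed list were measured. In edge against neural tissue, 2 of the 17 were called, beside 6.62% of all genes, and both rose (median log2 fold change of the list 1.10): Cd68, a lysosomal protein of macrophages (3.39), and Cxcl16, a chemokine that also binds oxidized lipoprotein (3.08). In tumor against neural tissue, 5 rose and 1 fell (median 1.18), a share near the 30.8% of all genes called there, with Cxcl16 (4.33) and Scarf2 (3.46) at the top and Megf10, an engulfment receptor known from astrocytes (-1.27), the only one that fell. Cd68 was at 1446 and 808 CPM in the edge, 642 and 194 in tumor and 126 and 87.2 in neural tissue, before TMM scaling. Both edges were above all other libraries. None was called in edge against tumor.

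Of 31 genes for TAM partners and engulfment, 30 were measured. In edge against neural tissue 5 rose and none fell (median 0.72), beside 6.62% of all genes called, led by Lgals3, a galectin described as a Mertk ligand (4.27), and Itgb3, an integrin subunit used in engulfment (2.32). In tumor against neural tissue 10 rose and 2 fell (median 0.99), beside 30.8% of all genes called. Lgals3 (3.82) and Mfge8, a bridge from phosphatidylserine to integrins (2.89), rose most, and Adgrb1, an engulfment receptor also found on neurons and glia (-3.85), and Tyro3, the third TAM receptor (-1.69), fell. Tyro3 was at 7.92 and 18.7 CPM in tumor, 22.0 and 25.6 in the edge and 44.6 and 55.2 in neural tissue, before TMM scaling. Its order, lowest in tumor, was thus the reverse of that of Axl in section 1. None of the 30 was called in edge against tumor.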

How the data were processed

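The authors deposited, per section, UMI counts per gene and spot made with Space Ranger 2.1.1 on mm10, with the array position of each spot as an other, non-measured value. From these deposited counts, spots with at least 500 UMIs and 10 genes were kept (3315 and 3999). Each got log2((CPM of neural markers + 100)/(CPM of tumor markers + 100)) from 25 genes each, an Otsu threshold per section and a majority vote with its up to 6 neighbors. The tumor was the largest connected mass and any other of at least 10% of its size (961 and 133 spots in section 2). The other tumor-like spots (21) were left out, and the study's own clusters and region of interest were not used.

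UMIs were summed per section and region and tested with edgeR 4.0.16 (filterByExpr, TMM, robust glmQLFit, glmQLFTest, Benjamini-Hochberg over all genes) in R 4.3.3. TMM factors were 0.868 to 1.16. The section was a block because the regions of a section come from 1 animal. DESeq2 1.42.0 was an alternative. A second fit of 8 libraries split the edge. Values of 1 section alone add 0.5 CPM. The edgeR and DESeq2 fits, but not the calling of regions, were also run on simulated counts. There all regions shared a profile apart from a set of changed genes, so scaling between unlike tissues was not tested. Alternatives were scaling, filters, block, edge width, region threshold and score, each section alone and, chosen after seeing the data, the largest mass alone.

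The 10 genes and all lists were chosen with earlier results of these data known. Other genes were named by rule: up to 2 per direction of largest change among those called in each list, and the 3 most alike of each gene (1 of those of Pros1 is not reported here). Of the listed genes, Folr2, Ly6c2, Ccl21a, Clec7a and Rac2 were among those not analysed here. Levels were not compared between genes, since probes differ.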

Additional observations from a re-analysis of the deposited data

How the results depend on the processing

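Over the alternatives, 78 of 84 refits of the 6 called comparisons (Msr1, Cd36 and Stab1 in edge and tumor against neural tissue) kept the call and none changed direction. Without the replicate block, 1 gene of the 10 (Stab1) was called in edge against neural tissue in place of 3, and 2 (Msr1 and Stab1) in tumor against neural tissue in place of 3, with no change in the other comparisons. Counting UMIs per spot instead of scaled CPM moved the median of all genes to 0.86, 1.81 and -1.06 on the log2 scale. It called 7, 10 and 4 of the 10 genes in edge against neural, tumor against neural and edge against tumor. DESeq2 called 3, 5 and 1 of the 10, beside 3662 of 15129, 7265 of 17366 and 2169 of 14011 genes. Edge against tumor also gave 1 with 4 regions and 1 with the threshold moved up. Of all genes, edge against neural called 1274, and 4149 with 4 regions, 5911 per spot, 3662 with DESeq2, 2173 and 673 with the threshold moved down and up, and 3046 with the neural markers alone. Tumor against neural called 5915, and 16458 per spot. Edge against tumor called 712, and 2940 with 4 regions, 1137 with library size alone, 9600 per spot, 2169 with DESeq2, 426 and 1171 with the threshold moved down and up, and 0 with the neural markers alone (2040 at an unadjusted p below 0.05). The sides of the edge differed in 0, 11 per spot and 299 with DESeq2. Of the uncalled log2 fold changes, 40 values changed sign. In edge against neural tissue, direction changed for Marco (from 0.26) to -0.30 (neural markers alone), for Gas6 (from 0.089) to -0.018 (threshold down), for Lyve1 (from -0.38) to 0.55 (per spot), 0.16 (edge of 1 step). In tumor against neural tissue, direction changed for Marco (from -0.30) to 1.62 (per spot), for Mertk (from 0.32) to -0.011 (library size), for Gas6 (from 0.085) to -0.23 (library size), for Lyve1 (from -0.55) to 1.40 (per spot). In edge against tumor, direction changed for Msr1 (from 0.90) to -0.17 (per spot), for Marco (from 0.56) to -0.49 (per spot), for Axl (from -0.18) to 0.11 (library size), for Mertk (from 0.88) to -0.22 (per spot), for Gas6 (from 0.0035) to -0.028 (with 4 regions), -0.072 (RLE), -1.04 (per spot), -0.072 (DESeq2), -0.092 (edge of 3 steps), -0.099 (threshold down), -0.0048 (threshold up), -0.14 (neural markers alone), for Pros1 (from 0.52) to -0.57 (per spot), for Stab1 (from 0.29) to -0.78 (per spot), for Lyve1 (from 0.17) to -0.15 (with 4 regions), -0.85 (per spot), -0.20 (edge of 3 steps), -0.11 (threshold down), -0.16 (threshold up), -0.80 (neural markers alone), -0.018 (largest mass). In neural-side edge against tumor-side edge, direction changed for Msr1 (from -0.61) to 0.084 (threshold down), for Cd36 (from -0.78) to 0.74 (threshold down), 0.0019 (neural markers alone), for Marco (from 0.50) to -0.45 (threshold up), for Axl (from -0.37) to 0.0089 (threshold down), for Mertk (from -0.054) to 0.083 (library size), 0.53 (threshold down), 0.37 (neural markers alone), for Gas6 (from 0.094) to -0.29 (per spot), -0.090 (threshold up), for Lyve1 (from -1.69) to 1.17 (threshold down). The causes were not tested. Each section alone leaves 1 library a region and no test. Single spots in place of smoothed ones moved 22 of 45 likeness values between the 10 genes (mean of both sections, by more than the SD between them) and turned the sign of 5, and a pseudocount of 10 CPM moved 9 and turned 4. Marco and Lyve1 were limited by depth, and 2 animals limit all p-values.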
